A study of Mus musculus with 48 samples.

Results

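The genes of the mouse major histocompatibility complex (MHC), named H2, were followed in kidney slices kept alive outside the body. Every row of the deposited count table whose mouse symbol begins with H2- was taken, pseudogenes included, which gave 45 of 55487 rows. Of these, 32 are class I genes, 12 are class II genes and 1, H2-Ke6, is an enzyme gene named only for its place in the complex. Male mice gave the tissue, and they were either C57BL/6J, with MHC haplotype H2b, or DBA/2J, with haplotype H2d. In each strain 8 conditions were sampled, with 3 libraries in each of the 16 groups. Control slices, slices given tunicamycin and slices given cyclosporin A were each taken at 6 h and at 24 h. A further pair of conditions, with 24 h in the sample titles, was normoxia, which the labels call the ischemia model, and normoxia-hyperoxia, which they call the reperfusion model. Tunicamycin blocks N-linked glycosylation, and cyclosporin A is an immunosuppressant that inhibits calcineurin. The labels give no drug dose, oxygen level or age, and the controls belong to the drug experiment, so the oxygen conditions had no control of their own name. In comparisons with these controls a difference between the experiments and an effect of the oxygen condition cannot be told apart. Rises and falls under either oxygen condition against controls are differences in that sense.

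Class I molecules sit on nearly all nucleated cells, where a heavy chain paired with beta-2-microglobulin shows peptides made inside the cell to CD8+ T cells. Class II molecules are pairs of an alpha and a beta chain that show peptides from taken-up proteins to CD4+ T cells. They are carried mainly by dendritic cells, macrophages and B cells, and in the kidney also by endothelium and, under inflammatory stimulation, by tubule cells. Interferon gamma raises both classes, through the regulators Nlrc5 for class I and Ciita for class II.

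Total counts ran from 5619309 to 25137581 per library. The lowest was DBA/2J normoxia-hyperoxia replicate 2, and the next was 12384733. None of the 48 pairs of replicates within groups held identical counts. The tissue label was borne out by its markers: in C57BL/6J 6 h controls Umod, the loop of Henle protein uromodulin, averaged 7168 CPM (each library's counts scaled to a common total), and the podocyte gene Nphs1 averaged 229 CPM. All 45 genes lie on chromosome 17 of build GRCm38, which is the C57BL/6J sequence. Because the genes are among the most polymorphic of the mouse, a difference in transcript level between the strains and a difference in how well DBA/2J reads map to C57BL/6J genes cannot be told apart. Near-identical members add a further limit, since reads of such genes can be counted under the wrong copy. The share of 50-base windows of a gene's exons that occur elsewhere in annotated transcripts was 0.514% for H2-Aa and 0.0% for H2-Ab1, H2-Eb1 and H2-Ea-ps. It was 9.63% for H2-K1, 12.8% for H2-D1, 36.4% for H2-Q4, 35% for H2-Q6 and 53.5% for H2-T22.

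Of the 45 genes, 30 reached a mean of 1 CPM in at least 1 group. The other 15 stayed below 1 CPM in all 16 groups, among them 11 of the H2-M genes and the class II genes H2-Pa, H2-Pb and H2-Eb2, and 6 had 0 counts in all 48 libraries. A total of 31 genes passed the filter on low counts in at least 1 comparison, and 26 passed it in all 17. Levels of different genes were compared per kilobase of exon. In C57BL/6J 6 h controls the order began with H2-D1 at 201 CPM per kb and H2-K1 at 172, the classical class I heavy chains. The class II beta chain H2-Eb1 followed at 115, then the Q region class I gene H2-Q6 at 93.4, the beta chain H2-Ab1 at 74.8, H2-Q4 at 60.9 and the alpha chain H2-Aa at 58.4. In DBA/2J 6 h controls H2-D1 stood at 200 CPM per kb, the class II alpha chain H2-Ea-ps at 132, H2-K1 at 95.6 and H2-Eb1 at 82.4.

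The promoters of the classical genes of both classes are shown because the classes moved apart in the comparisons below and are known for different regulatory elements. The 250 bases before the annotated start were taken from RefSeq (GRCm38.p6) for H2-Aa (chr17:34287824-34288073, minus strand), H2-Eb1 (chr17:34305617-34305866, plus strand), H2-K1 (chr17:34000348-34000597, minus strand) and H2-D1 (chr17:35262844-35263093, plus strand). Each is written 5′ to 3′ on the gene's strand, and capitals mark matches on either strand to 5 motifs that were chosen with these sequences in view. The motifs were the X1 box core CTNGCAAC, the X2 box core TGACG, the Y box ATTGG, the NF-kappaB site core GGGATTCCC and the interferon-stimulated response element core AGTTTCNNT.
H2-Aa: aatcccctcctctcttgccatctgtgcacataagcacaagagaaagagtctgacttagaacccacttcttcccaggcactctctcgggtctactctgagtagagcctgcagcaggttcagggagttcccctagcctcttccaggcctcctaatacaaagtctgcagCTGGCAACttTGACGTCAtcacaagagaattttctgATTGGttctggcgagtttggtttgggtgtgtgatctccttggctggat
H2-Eb1: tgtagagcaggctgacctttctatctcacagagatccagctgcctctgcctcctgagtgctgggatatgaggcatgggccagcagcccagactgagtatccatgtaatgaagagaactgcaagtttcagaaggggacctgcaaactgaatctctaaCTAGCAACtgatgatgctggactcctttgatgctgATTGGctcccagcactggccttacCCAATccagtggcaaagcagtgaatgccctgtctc
H2-K1: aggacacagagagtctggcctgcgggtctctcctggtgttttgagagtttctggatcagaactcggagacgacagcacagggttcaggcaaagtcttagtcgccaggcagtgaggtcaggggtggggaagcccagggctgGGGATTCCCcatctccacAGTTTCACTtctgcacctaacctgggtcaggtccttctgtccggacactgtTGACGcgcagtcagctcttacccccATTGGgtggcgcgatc
H2-D1: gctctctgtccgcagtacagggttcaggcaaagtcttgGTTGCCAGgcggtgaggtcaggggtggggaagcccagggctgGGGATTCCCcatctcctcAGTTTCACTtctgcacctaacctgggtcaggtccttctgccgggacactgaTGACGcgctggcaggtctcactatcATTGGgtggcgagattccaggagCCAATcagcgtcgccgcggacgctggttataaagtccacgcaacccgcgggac
The X1 box, which binds the RFX complex that recruits Ciita and Nlrc5, lay at -84 to -77 in H2-Aa and at -94 to -87 in H2-Eb1, counted with -1 as the base before the start. H2-D1 had a match to it on the other strand at -212 to -205. In H2-Aa an X2 box at -74 to -70 overlapped a match on the other strand at -71 to -67. The classical class I promoters held the NF-kappaB site at -110 to -102 in H2-K1 and at -170 to -162 in H2-D1, each followed by the interferon element. Among the 32851 promoters of the same length, 0.301% held the NF-kappaB site, 4.12% the interferon element, 2.84% the X1 core, 17.8% the X2 core and 33.8% the Y box. Of the 35 H2 promoters in the table, where a gene can have several starts, 5, 12, 6, 13 and 31 held them, in the same order. A match describes the letters only.

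Class II transcripts were several-fold lower in 24 h than in 6 h control slices of both strains. H2-Aa, the alpha chain of the A molecule, measured 154, 285 and 228 CPM in C57BL/6J at 6 h and 36.4, 54.8 and 50.9 CPM at 24 h. In DBA/2J it measured 203, 198 and 198 CPM at 6 h and 39.2, 36.5 and 27.1 CPM at 24 h. All 24 h libraries lay below all 6 h libraries in both strains. The mean change over the strains was 5.29-fold lower, a log2 difference of -2.40 (SE 0.156, adjusted p = 3.92e-08, edgeR quasi-likelihood test with Benjamini-Hochberg adjustment over all genes tested). H2-Ab1, its partner beta chain, fell 3.76-fold, and H2-Eb1, the beta chain of the E molecule, fell 5.36-fold. The loading genes fell with them: H2-DMa, H2-DMb1 and H2-DMb2, chains of the peptide exchanger DM, changed by -1.10, -1.92 and -1.49 on the log2 scale, and H2-Ob, a chain of its inhibitor DO, by -2.26. In this comparison 7 of the 8 class II genes tested fell over both strains and none rose, with a median log2 difference of -1.91. The eighth, H2-Ea-ps, is described separately because C57BL/6J has no signal. Over all genes tested 72.0% changed with time and 37.4% fell, with a median log2 difference of -0.02.

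Markers of other cell types moved between the same slices. The summed level of 5 pan-leukocyte markers lay at 73.4 to 94.7 CPM in C57BL/6J and 76.6 to 103 CPM in DBA/2J at 6 h, and at 39.1 to 61.6 and 54.7 to 70.8 CPM at 24 h. Of the leukocyte markers 4 of 5 fell with time, of the T and NK cell markers 6 of 6 tested, of the dendritic cell markers 2 of 6 tested and of the macrophage markers 4 of 8, with 1 rising. The 8 macrophage markers summed to 142 to 186 CPM in C57BL/6J at 6 h and 134 to 195 CPM at 24 h, ranges that overlap. All 7 proximal tubule markers fell as well. Their part in the class II result was not tested, and in bulk RNA fewer class II-bearing cells and less class II RNA per cell cannot be told apart.

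Under normoxia the class II genes stood at several times the 24 h control level. H2-Aa measured 206, 215 and 187 CPM in C57BL/6J and 118, 135 and 144 CPM in DBA/2J, and no normoxia library overlapped the 24 h controls given above. Over both strains H2-Aa rose 4.18-fold, H2-Eb1 4.13-fold and H2-Ab1 3.42-fold, with log2 differences of 2.06, 2.05 and 1.77. H2-Ab1 rose by 2.14 in C57BL/6J and 1.40 in DBA/2J, and its interaction of -0.74 was lost in 7 of 12 fits without 1 library. The DM chains rose too. H2-DMa rose by 2.10 on the log2 scale in C57BL/6J and by 0.73 in DBA/2J, with an interaction of -1.37. Over both strains H2-DMb1 rose by 2.05, H2-DMb2 by 2.25 and H2-Ob by 2.90. H2-Oa, the other DO chain, was among the called genes but had few counts: it measured 1.56, 2.09 and 1.43 CPM in C57BL/6J normoxia against 0.0938, 0.261 and 0.147 CPM in the 24 h controls. In DBA/2J it measured 0.633, 0.774 and 0.886 CPM against 0 counts in all 3 controls. In total 8 of the 9 class II genes tested rose and none fell, with a median of 2.05, against 82.0% of all genes called and 42.4% called upward. H2-Oa is in this count, but it passed the filter on low counts only through normoxia, where it is high. Its rise is therefore no independent support. Between the same slices 5 of 5 pan-leukocyte, 7 of 7 T and NK cell and 6 of 8 dendritic cell markers rose under normoxia, and the leukocyte markers summed to 120 to 136 CPM in C57BL/6J and 86.4 to 101 CPM in DBA/2J. Counts for macrophage, B cell and endothelial markers, whose cells also carry class II, are not given here. The part of any of these markers was not tested.

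Set against the 6 h controls instead, the class II genes went both ways under normoxia. H2-Aa was lower by a log2 difference of -0.38 and H2-Eb1 by -0.42, while H2-DMa, H2-DMb2, H2-Ob and H2-Oa rose by 0.27, 0.72, 0.59 and 1.34. H2-Ab1 had a log2 difference of -0.18 (adjusted p = 0.0973). Of the 9 class II genes 4 rose and 2 fell, and over all genes 65.8% changed, 32.9% in each direction. H2-Oa, among the 4, again passed the filter on low counts only through normoxia. H2-DMb2 rose by 1.47 in C57BL/6J and had -0.04 in DBA/2J (adjusted p = 0.888), with an interaction of -1.51 (adjusted p = 0.019). The comparisons of normoxia with both control times and of the controls with each other share libraries, so their values are set side by side and not related to one another.

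**Figure D1:**
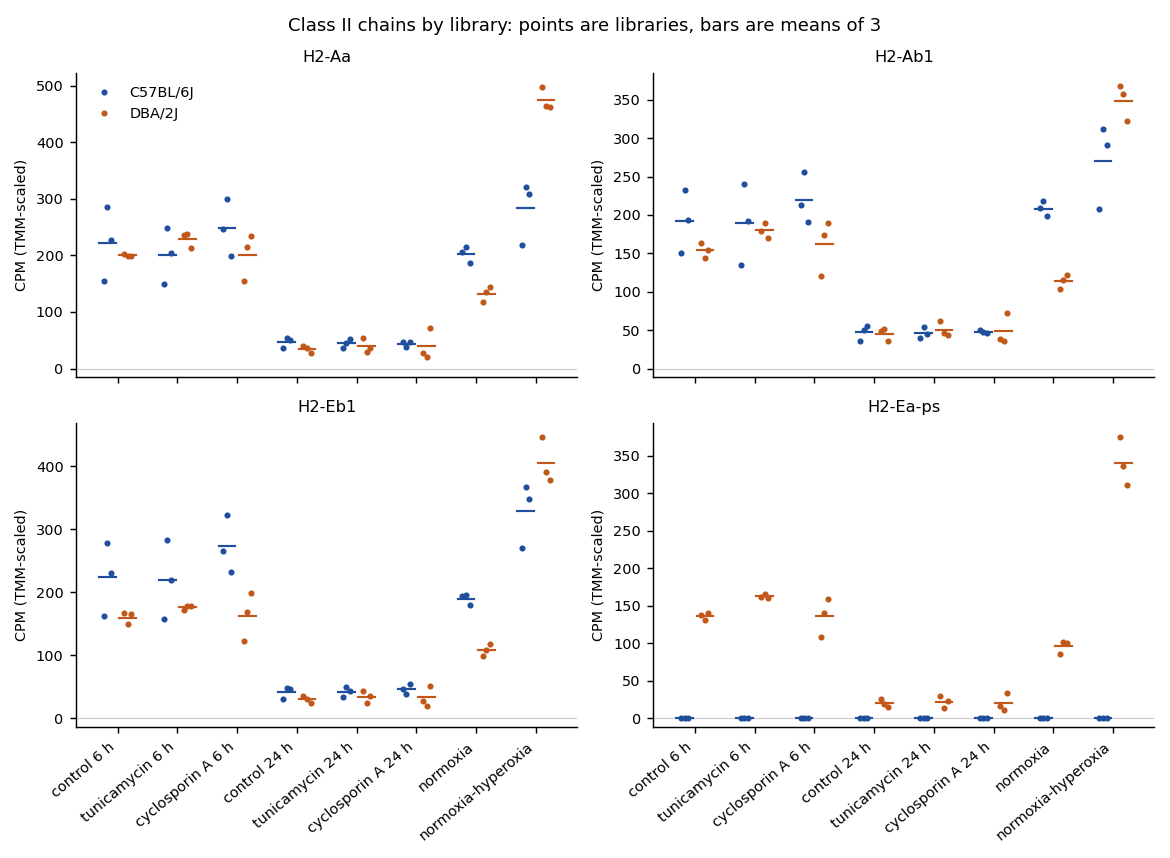
CPM on linear axes from 0 for the 4 class II chains H2-Aa, H2-Ab1, H2-Eb1 and H2-Ea-ps in all 16 groups. Points are libraries, bars are means of 3, with C57BL/6J in blue and DBA/2J in orange. The chains are low in all 24 h control and drug groups, high at 6 h and under both oxygen conditions, and H2-Ea-ps is seen only in DBA/2J apart from traces.

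The summed class II level had its highest mean in normoxia-hyperoxia slices in each strain. H2-Aa measured 219, 320 and 309 CPM in C57BL/6J and 498, 464 and 463 CPM in DBA/2J. Every DBA/2J library lay above every C57BL/6J library, the reverse of the order under normoxia. By edgeR the strain difference of H2-Aa passed in neither condition. It was -0.62 (adjusted p = 0.0789) under normoxia and 0.75 (adjusted p = 0.0504) under normoxia-hyperoxia. Against the 24 h controls H2-Aa rose 9.05-fold over both strains. The log2 differences were 3.18 (SE 0.133) for H2-Aa, 3.34 (SE 0.135) for H2-Eb1 and 2.72 (SE 0.138) for H2-Ab1. By strain H2-Aa rose by 2.57 in C57BL/6J and 3.78 in DBA/2J, and its interaction of 1.21 was lost in 9 of 12 fits without 1 library. Again 8 of the 9 class II genes tested rose, with a median of 2.72, while 68.2% of all genes were called and 34.1% upward. The 9 include H2-Oa, which passed the filter on low counts only through normoxia-hyperoxia. In the same comparison 7 of 8 macrophage, 7 of 8 dendritic cell and 5 of 5 pan-leukocyte markers rose, and their part was not tested. Summed over the 12 class II genes, the means were 145 and 139 CPM in 24 h controls of C57BL/6J and DBA/2J, 641 and 471 CPM under normoxia and 915 and 1604 CPM under normoxia-hyperoxia. The DBA/2J sums include H2-Ea-ps, at means of 19.9, 96.0 and 341 CPM in that order, where C57BL/6J had 0 counts.

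The step from normoxia to normoxia-hyperoxia differed between the strains in most class II genes. H2-Aa rose by a log2 difference of 0.49 (SE 0.125) in C57BL/6J and 1.77 (SE 0.129) in DBA/2J, and the difference between these, the interaction, was 1.27 (SE 0.178, adjusted p = 0.000439). H2-Ab1 measured 209, 218 and 198 CPM under normoxia and 208, 312 and 291 CPM under normoxia-hyperoxia in C57BL/6J. In DBA/2J it went from 104, 115 and 122 CPM to 368, 357 and 323 CPM, with no overlap. Its interaction was 1.15 and that of H2-Eb1 was 1.02. In the DM chains the strains went opposite ways or only DBA/2J passed the threshold: H2-DMb2 fell by 0.66 in C57BL/6J and rose by 0.61 in DBA/2J. H2-DMa and H2-DMb1 rose by 0.72 and 0.73 in DBA/2J, where C57BL/6J had values of -0.09 and -0.38 that did not pass. Of the 9 class II genes tested 7 had a larger rise or smaller fall in DBA/2J, as had 3 of the 19 class I genes, while 18.2% of all genes tested showed an interaction and 7.2% in that direction. The interactions of H2-Aa, H2-Ab1, H2-Eb1, H2-DMa and H2-DMb1 passed in all 12 fits that left out 1 library. That of H2-DMb2 (1.27) was lost without C57BL/6J normoxia replicate 3, C57BL/6J normoxia-hyperoxia replicate 1 or DBA/2J normoxia-hyperoxia replicate 1, at values of 1.00 to 1.13. That of H2-Ob (0.97) was lost in 9 of the 12 fits. Within strains, the fall of H2-DMb2 in C57BL/6J was lost in 6 of those fits and its rise in DBA/2J in 5, and the rise of H2-DMb1 in DBA/2J was lost without DBA/2J normoxia-hyperoxia replicate 1 (adjusted p = 0.0593 by edgeR).

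Markers of several other cell types also differed by strain in this step. The 8 macrophage markers summed to 208 to 229 CPM under normoxia and 202 to 264 CPM under normoxia-hyperoxia in C57BL/6J, and to 163 to 189 and 348 to 468 CPM in DBA/2J. In C57BL/6J the 8 dendritic cell markers summed to 36.5 to 48.9 CPM under normoxia and 46.7 to 59.8 CPM under normoxia-hyperoxia, and in DBA/2J to 21.5 to 26.8 and 67.4 to 74.8 CPM. The interaction was called, with the larger rise in DBA/2J, in 7 of 8 macrophage markers, 5 of 8 dendritic cell markers and 5 of 5 pan-leukocyte markers. T and NK cell markers were mixed, with an interaction toward DBA/2J in 2 of 7 and toward C57BL/6J in 1. The 6 B cell markers had median sums of 8.18 CPM under normoxia and 7.82 CPM under normoxia-hyperoxia in C57BL/6J, and of 8.2 and 14.6 CPM in DBA/2J. The 7 endothelial markers summed to 977 to 1359 and 1516 to 2148 CPM in C57BL/6J and to 507 to 807 and 1421 to 2040 CPM in DBA/2J, with an interaction called in 1 of 7. Between the strains 7 of 7 endothelial markers were lower in DBA/2J under normoxia (Emcn -0.93, Pecam1 -0.80), where 19.3% of all genes were. So were 5 of 8 dendritic cell, 5 of 5 collecting duct, 4 of 5 loop of Henle and distal tubule and 3 of 4 podocyte markers, while 5 of 7 proximal tubule markers were higher. Under normoxia-hyperoxia the log2 differences of the endothelial markers ran from -0.30 to 0.25. Their part in the class II difference was not tested.

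**Figure D2:**
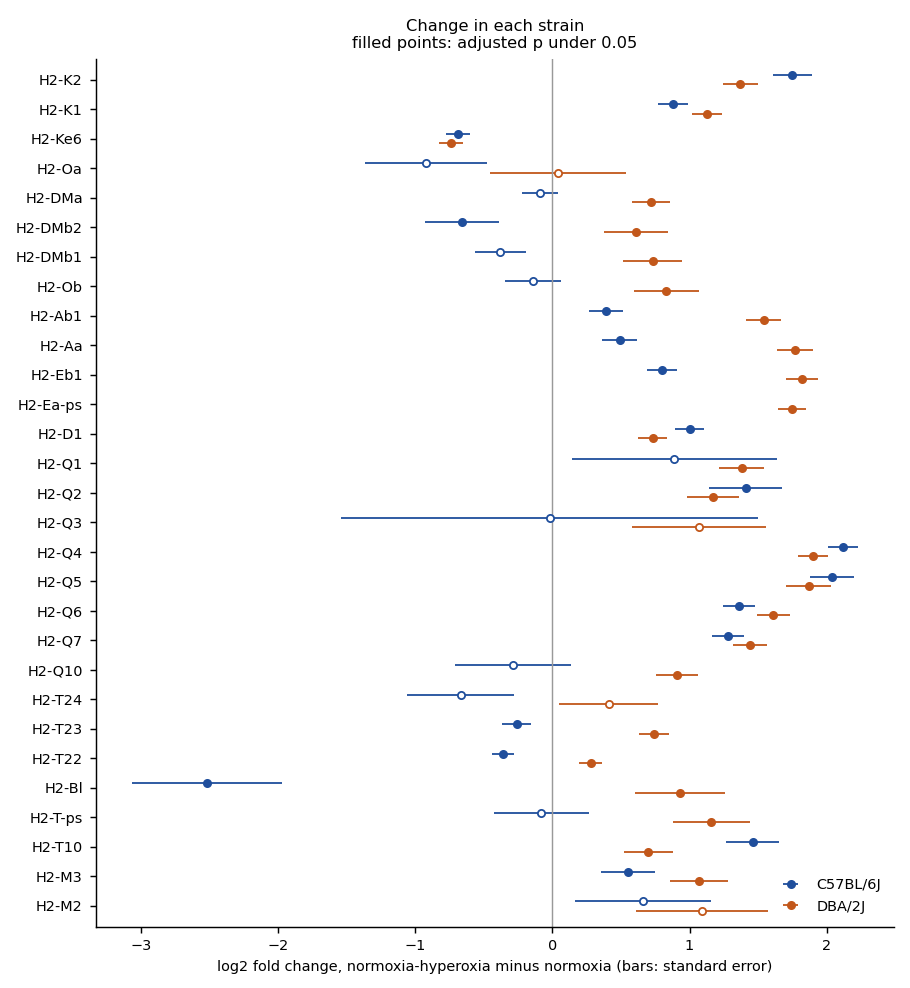
Log2 change from normoxia to normoxia-hyperoxia for each H2 gene tested, in C57BL/6J (blue) and DBA/2J (orange), with bars of 1 SE. Filled points passed an adjusted p of 0.05, and H2-Ea-ps is drawn for DBA/2J only. The class II chains lie farther right in DBA/2J, while H2-K1, H2-D1 and the Q region genes H2-Q4 to H2-Q7 lie close together in both strains.

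H2-Ea-ps encodes the alpha chain of the E molecule, which pairs with the H2-Eb1 chain. Strains of the H2b haplotype are known to carry a deletion at its start that silences it, and the annotation lists the locus (chr17:34341959-34344645, minus strand) as a polymorphic pseudogene. C57BL/6J had 0 counts in all libraries of both control times, of 24 h cyclosporin A, of normoxia and of normoxia-hyperoxia. A single count occurred in 1 library of 6 h tunicamycin and in 1 of 6 h cyclosporin A, and 18 counts (0.722 CPM) in 24 h tunicamycin replicate 2. Of the 6 other H2 genes that were higher in DBA/2J under all 8 conditions, H2-Q1, H2-Q2, H2-Q10, H2-Bl and H2-T3 had their highest value of the 3 replicates in that library, and H2-Q3 had 0 counts in all 3. H2-Bl stood at 1.89 CPM against 0.540 and 1.08 CPM, while H2-Q2 stood at 14.8 CPM against 12.5 and 13.7 CPM. The source of the 18 counts was not tested.

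In DBA/2J the same gene measured 138, 131 and 141 CPM in 6 h controls and 25.3, 19.2 and 15.2 CPM in 24 h controls. It reached 85.6, 102 and 101 CPM under normoxia and 375, 336 and 311 CPM under normoxia-hyperoxia, so the 4 groups did not overlap. Against a floor of 3 counts per library in C57BL/6J, DBA/2J was at least 751-fold higher in 6 h controls, 122-fold higher in 24 h controls, 617-fold higher under normoxia and 2230-fold higher under normoxia-hyperoxia. Within DBA/2J it fell 6.95-fold with time, rose 5.08-fold under normoxia and 16.9-fold under normoxia-hyperoxia against 24 h controls. The ratio of H2-Ea-ps to its partner H2-Eb1 in CPM had a median of 0.856 at 6 h, 0.629 at 24 h, 0.860 under normoxia and 0.840 under normoxia-hyperoxia in DBA/2J.

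The DM beta chain comes from a pair of neighbouring genes, whose counts stood in different proportion in the strains. H2-DMb1 measured 15.1, 13.3 and 16 CPM in C57BL/6J 6 h controls and 4.86, 4.09 and 4.67 CPM in DBA/2J. H2-DMb2 ran the other way, at 0.861, 0.769 and 0.909 CPM in C57BL/6J and 4.45, 4.44 and 4.56 CPM in DBA/2J. The strains did not overlap in either gene. The ratio of H2-DMb1 to H2-DMb2 had a median of 17.5 in C57BL/6J and 1.02 in DBA/2J at 6 h, and 8.16 and 1.14 under normoxia-hyperoxia. DBA/2J was lower in H2-DMb1 in all 8 conditions (log2 -1.88 to -0.68) and higher in H2-DMb2 in 7 of 8 (1.66 to 2.39), with 0.86 under normoxia (adjusted p = 0.0646). The 2 genes share 22.7% and 25.9% of their 50-base windows with other transcripts, chiefly with each other. H2-DMb1 under normoxia-hyperoxia was the weakest case, at -0.68 (adjusted p = 0.0335), and missed the threshold in 4 of 6 fits without 1 library. H2-DMb2 in 24 h controls, at 1.92, missed it without DBA/2J replicate 1 (1.61, adjusted p = 0.0533), and under 24 h tunicamycin, at 1.88, without C57BL/6J replicate 2 (1.39, adjusted p = 0.0672).

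The classical class I genes H2-K1 and H2-D1 had small differences between the control times. H2-K1 measured 492, 553 and 468 CPM in C57BL/6J at 6 h and 563, 732 and 673 CPM at 24 h. In DBA/2J it measured 271, 273 and 298 CPM, then 296, 342 and 291 CPM, so the times overlapped in DBA/2J and not in C57BL/6J. The rise over both strains, 0.24 on the log2 scale (SE 0.0791, adjusted p = 0.0128), was lost without C57BL/6J 6 h control replicate 3 (0.21, adjusted p = 0.05). H2-D1 had a log2 difference of 0.17 (adjusted p = 0.0974). Among the 19 class I genes tested 7 rose and 4 fell with time, with a median of 0.17, where 34.7% of all genes rose and 37.4% fell.

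Under normoxia both classical genes were lower than in 24 h controls. H2-K1 measured 297, 327 and 331 CPM in C57BL/6J and 168, 180 and 189 CPM in DBA/2J, below every 24 h control of its strain. It fell by 0.88 and H2-D1 by 0.61 on the log2 scale. The fall of H2-D1 was larger in C57BL/6J (-0.95) than in DBA/2J (-0.27, a call lost in 3 of 12 fits that left out 1 library), with an interaction of 0.68 (adjusted p = 0.0079) that was lost without DBA/2J 24 h control replicate 3 (0.54, adjusted p = 0.0581). Of the 19 class I genes 14 fell and 2 rose, with a median of -0.90, against 39.7% of all genes called downward. Against the 6 h controls, a comparison that uses the same normoxia libraries, 11 of 17 class I genes fell and none rose, where 32.9% of all genes fell. H2-K1 fell by 0.68 and H2-D1 by 0.49.

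From normoxia to normoxia-hyperoxia the classical genes rose in both strains. This comparison shares the normoxia libraries with those of normoxia against controls, so these falls and rises are not independent. H2-K1 reached 503, 636 and 597 CPM in C57BL/6J and 371, 401 and 466 CPM in DBA/2J, above every normoxia library, a change of 2.00-fold over both strains (log2 1.00, SE 0.0773). H2-D1 went from 311, 344 and 334 CPM to 585, 696 and 679 CPM in C57BL/6J and from 412, 417 and 451 CPM to 660, 744 and 831 CPM in DBA/2J. Its log2 difference was 0.86. The interactions, 0.25 for H2-K1 and -0.27 for H2-D1, did not pass (adjusted p = 0.275 and 0.213). Here 14 of the 19 class I genes rose, with a median of 0.87, and 1, H2-Bl, fell (-0.79 over both strains, a call lost in 7 of 12 fits without 1 library). Over all genes 73.5% changed and 37% rose. Against the 24 h controls, H2-K1 had a log2 difference of 0.11 (adjusted p = 0.266), and the 0.24 of H2-D1 (adjusted p = 0.0271) was lost in 7 of 12 fits without 1 library.

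**Figure D3:**
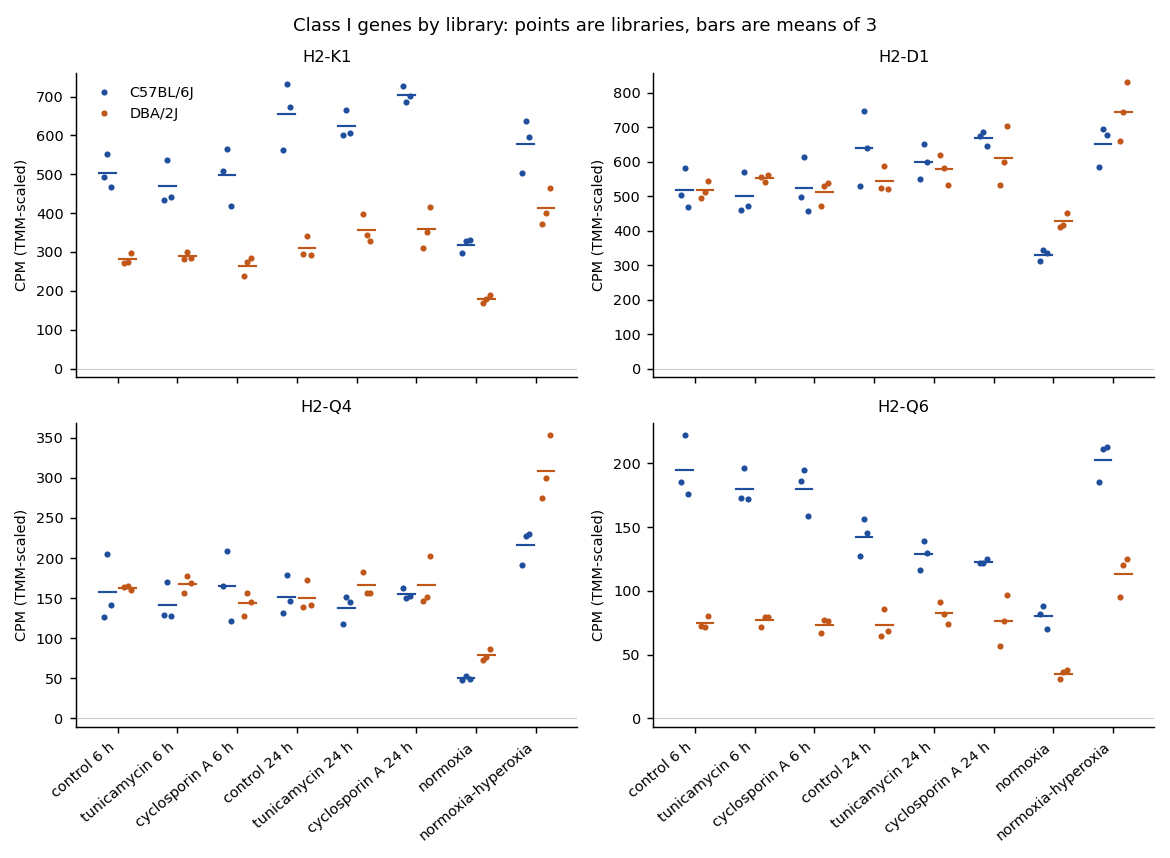
CPM on linear axes from 0 for the class I genes H2-K1, H2-D1, H2-Q4 and H2-Q6 in all 16 groups. Points are libraries, bars are means of 3, blue C57BL/6J and orange DBA/2J. Both strains dip under normoxia, and C57BL/6J lies above DBA/2J in H2-K1 and H2-Q6 but not in H2-D1.

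The Q region holds nonclassical class I genes, of which H2-Q6 and H2-Q7 encode the Qa-2 antigen. Against 24 h controls H2-Q4 to H2-Q7 were lower under normoxia, and they were higher under normoxia-hyperoxia than under normoxia. Both comparisons use the same normoxia libraries. H2-Q4 measured 131, 179 and 147 CPM in C57BL/6J 24 h controls, 47.3, 53.4 and 49.6 CPM under normoxia and 191, 228 and 230 CPM under normoxia-hyperoxia. DBA/2J gave 139, 172 and 141 CPM, then 73.0, 76.5 and 86.0 CPM, then 275, 300 and 353 CPM. The 3 conditions did not overlap in either strain. H2-Q4 fell by 1.60 in C57BL/6J and 0.86 in DBA/2J under normoxia (interaction 0.74), and over both strains it rose by 2.01 (SE 0.0772, adjusted p = 4.7e-12) from normoxia to normoxia-hyperoxia, a 4.03-fold change. H2-Q5, H2-Q6 and H2-Q7 followed over both strains, with falls of 1.45, 0.90 and 0.93 and rises of 1.95, 1.48 and 1.36. All 4 also rose against 24 h controls, by 0.77, 0.48, 0.56 and 0.41 from H2-Q4 to H2-Q7. The summed Q region took from 17.2% (C57BL/6J normoxia) to 30.6% (DBA/2J normoxia-hyperoxia) of class I counts, and H2-K1 with H2-D1 from 58.5% to 70.4%.

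H2-Q1, H2-Q2 and H2-Q10 were higher in DBA/2J under all 8 conditions, H2-Q2 by a log2 difference of only 0.63 in 24 h controls. H2-Q10, known as a secreted class I molecule of the liver, measured 36.4, 36.8 and 43.6 CPM in DBA/2J 6 h controls and 0.246, 0.0641 and 0.341 CPM in C57BL/6J. At 24 h it stood at 42.3, 46.9 and 38.6 CPM in DBA/2J and at 1.69, 1.48 and 1.76 CPM in C57BL/6J. It rose by 2.82 with time in C57BL/6J, with 0.11 in DBA/2J (adjusted p = 0.486), and the interaction was -2.72. H2-Q2 likewise went from 2.46, 3.85 and 2.67 CPM to 16, 14.4 and 17.5 CPM in C57BL/6J, while DBA/2J had 22.7, 21 and 27.1 CPM and then 23.6, 25.1 and 25.1 CPM. Its interaction with time was -2.36. In all, 3 H2 genes showed an interaction with time, against 0.69% of all genes, and the third was H2-T-ps. The count was 8 with no filter on low counts and 7 with DESeq2.

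H2-T-ps is listed as an unprocessed pseudogene of the T region (chr17:36109234-36111658, minus strand). In C57BL/6J it measured 1.84, 1.67 and 1.76 CPM in 6 h controls and 16.9, 19 and 23.3 CPM in 24 h controls, an 11.1-fold rise. It stayed at that level in the 24 h drug groups (13.3 to 25.4 CPM) and was at 0.709, 1.44 and 1.15 CPM under normoxia and 0.906, 1.38 and 0.740 CPM under normoxia-hyperoxia. DBA/2J measured 4.63, 4.85 and 4.39 CPM at 6 h and 3.46, 5.60 and 4.03 CPM at 24 h, ranges that overlap. The strain order therefore turned between the control times: DBA/2J was higher by 1.39 at 6 h and lower by a log2 difference of -2.17 at 24 h. Of its 50-base windows 29.4% occur elsewhere, among others in H2-T23 and H2-Q1. Another pseudogene, H2-M6-ps, had 0 counts in all C57BL/6J 6 h controls and 1.55, 0.957 and 1.47 CPM at 24 h. In DBA/2J the 24 h controls gave 0.569, 0.592 and 0.610 CPM, with at most 0.0899 CPM at 6 h.

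**Figure D4:**
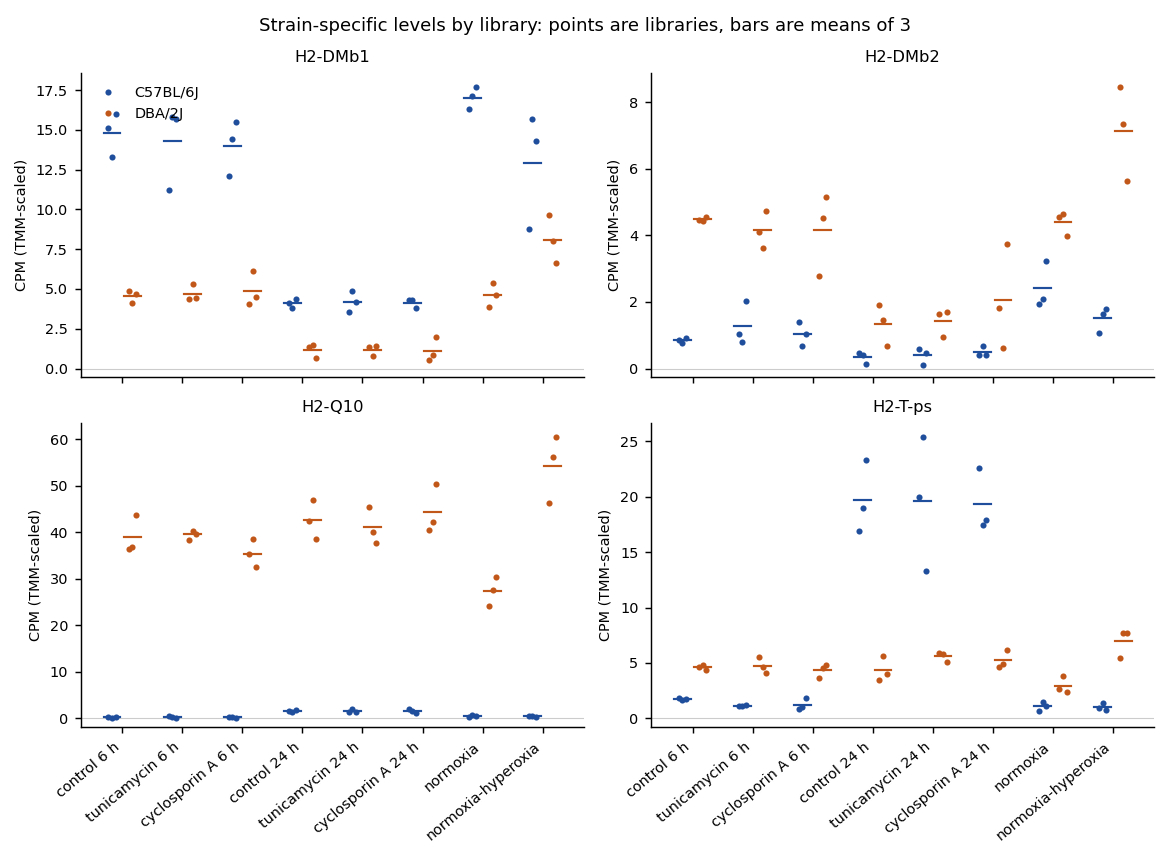
CPM on linear axes from 0 for H2-DMb1, H2-DMb2, H2-Q10 and H2-T-ps in all 16 groups. Points are libraries, bars are means of 3, blue C57BL/6J and orange DBA/2J. H2-DMb1 is higher in C57BL/6J, H2-DMb2 and H2-Q10 in DBA/2J, and H2-T-ps is high only in the 24 h control and drug groups of C57BL/6J.

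Among the other T region genes, H2-T23 encodes Qa-1, a ligand of inhibitory receptors on NK cells. It measured 97.0, 98.2 and 97.5 CPM under normoxia and 79.6, 87.9 and 74.7 CPM under normoxia-hyperoxia in C57BL/6J. In DBA/2J it went up, from 48.6, 54.5 and 63.4 CPM to 84.5, 105 and 105 CPM. By edgeR the fall of 0.26 passed narrowly (adjusted p = 0.046) and the rise of 0.74 passed with an adjusted p of 2.19e-05. The interaction was 1.00 (adjusted p = 0.000679). H2-T22, a ligand of some gamma delta T cell receptors, showed the same pattern, with -0.36 in C57BL/6J, 0.28 in DBA/2J and an interaction of 0.63. Its near relative H2-T10 rose in both strains, by 1.46 and 0.70. H2-T24 fell with time (-1.51 over both strains) and was higher than 24 h controls under normoxia (1.43). Under normoxia-hyperoxia it was higher than 24 h controls in DBA/2J (2.30), with 0.27 in C57BL/6J (adjusted p = 0.462 by edgeR) and an interaction of 2.03 that was lost in 8 of 12 fits without 1 library.

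H2-Bl fell from 0.993, 0.428 and 0.384 CPM to 0.0566, 0.0864 and 0.159 CPM in C57BL/6J between normoxia and normoxia-hyperoxia, and rose from 1.54, 1.22 and 1.77 CPM to 2.93, 2.62 and 3.49 CPM in DBA/2J. The interaction was 3.45, and it passed in all 12 fits without 1 library. H2-M3, which presents formylated bacterial peptides, fell by 0.64 under normoxia and rose by 0.81 from normoxia to normoxia-hyperoxia. H2-M2 stayed low: its largest values, 1.06, 1.40 and 0.708 CPM, were in DBA/2J normoxia-hyperoxia. H2-K2, a pseudogene beside H2-K1, fell by 1.24 under normoxia against 24 h controls and rose by 1.56 from normoxia to normoxia-hyperoxia. H2-Ke6, a hydroxysteroid dehydrogenase with no part in antigen presentation, fell by 1.2 with time, rose by 1.5 under normoxia and fell by 0.71 from normoxia to normoxia-hyperoxia. Of its 50-base windows 70.5% occur in another annotated transcript.

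Differences between the strains were frequent in every condition. In 6 h controls 18 of 31 H2 genes differed, 10 of them higher in DBA/2J, against 25.8% of all genes tested. In 24 h controls 19 differed (21.7% of all genes), under normoxia 24 (39.9%) and under normoxia-hyperoxia 17 (22.3%). With tunicamycin 18 differed at 6 h (25.6%) and 16 at 24 h (17.6%), and with cyclosporin A 20 at 6 h (35.9%) and 18 at 24 h (21.5%). All of these rest on the same 48-library fit. The counts include H2-Ea-ps, H2-Q3 and H2-T3, which passed the filter on low counts only through DBA/2J.

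DBA/2J was higher in all 8 conditions in 7 genes: H2-Ea-ps, H2-Q1, H2-Q2, H2-Q3, H2-Q10, H2-Bl and H2-T3. Of all genes tested 3.48% were higher in DBA/2J in all 8. H2-Ea-ps, H2-Q3 and H2-T3 passed the filter on low counts only through DBA/2J, so their place among the 7 is no independent support. The log2 differences ran from 4.70 to 7.41 for H2-Q10, from 4.31 to 8.23 for H2-Q1, from 0.63 to 3.20 for H2-Q2 and from 1.30 to 4.84 for H2-Bl. H2-Q3 and H2-T3 had at most 1.40 and 1.37 CPM in any library, and C57BL/6J was at 0 counts in several groups, so no fold is given for them.

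C57BL/6J was higher in all 8 conditions in 5 genes: H2-K1, H2-DMb1, H2-Q6, H2-Q7 and H2-T22. Of all genes tested 1.8% were lower in DBA/2J in all 8. For H2-K1 the log2 difference ran from -1.08 in 24 h controls to -0.49 under normoxia-hyperoxia. For H2-Q6, H2-Q7 and H2-T22 it ran from -1.38 to -0.64, from -1.29 to -0.74 and from -1.47 to -0.49. H2-D1 differed only under normoxia (0.37), so the ratio of H2-K1 to H2-D1 had a median of 0.974 in C57BL/6J and 0.547 in DBA/2J 6 h controls. H2-Aa, H2-M2 and H2-M6-ps differed in none of the 8 conditions. H2-Aa had a log2 difference of 0.75 under normoxia-hyperoxia with an adjusted p of 0.0504, although its libraries did not overlap there. H2-Ab1 and H2-Eb1 were lower in DBA/2J under normoxia (-0.87 and -0.81). H2-T-ps and H2-DMa differed in both directions. H2-DMa was lower in DBA/2J under normoxia (-0.71) and higher at 24 h in controls (0.74), with tunicamycin (0.66) and with cyclosporin A (0.92). The difference in controls was lost without replicate 1 of either strain (values of 0.52 to 0.65), and that with tunicamycin in 3 of 6 fits without 1 library.

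**Figure D5:**
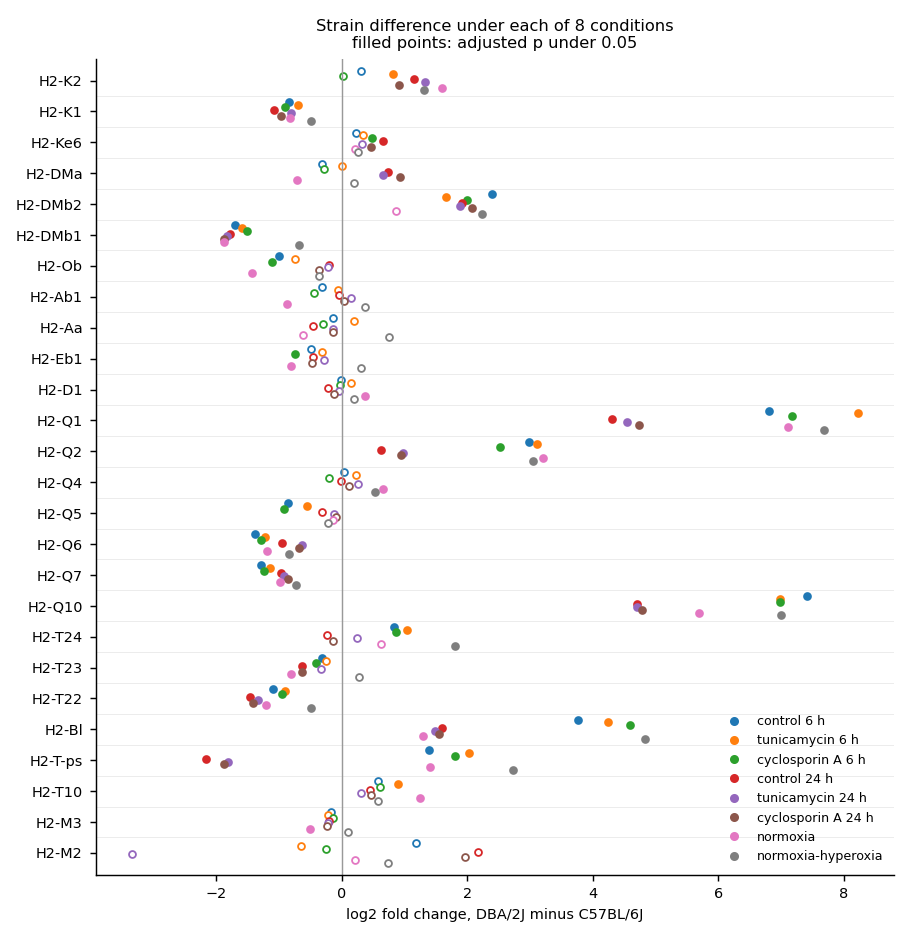
Log2 difference DBA/2J minus C57BL/6J for 26 H2 genes in the 8 conditions, from the fit of all 48 libraries. Filled points passed an adjusted p of 0.05, and the other 5 of the 31 genes tested, each with a group at 0 counts, are left out. H2-Q1, H2-Q2, H2-Q10 and H2-Bl are on the DBA/2J side in every condition and H2-K1, H2-Q6, H2-Q7 and H2-T22 on the C57BL/6J side, while H2-T-ps and H2-DMa change side.

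Neither drug changed an H2 gene by the test. No member was called by edgeR or by DESeq2 in any of the 16 drug contrasts, over both strains, in each strain or for the interaction. Over both strains, unadjusted p-values under 0.05 were found for 0 of 29 genes with tunicamycin at 6 h, 2 of 28 with cyclosporin A at 6 h, 2 of 29 with tunicamycin at 24 h and 1 of 29 with cyclosporin A at 24 h. Of all genes 1.7%, 4.44%, 12.9% and 6.56% had such a p-value, in the same order. The smallest adjusted p-values were 1.0, 0.892, 0.302 and 0.671. Over all genes, 1.38% were called with tunicamycin at 24 h and 0.0% in the other 3 comparisons over both strains. In DBA/2J alone tunicamycin at 24 h had 0.201% called higher and 0.0355% lower.

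The estimates for the abundant genes were small. H2-K1 had log2 differences of -0.03 (SE 0.0791) and 0.07 (SE 0.0753) with tunicamycin at 6 h and 24 h, and of -0.06 (SE 0.0876) and 0.17 (SE 0.0825) with cyclosporin A. H2-Aa had 0.02 (SE 0.144), 0.07 (SE 0.173), 0.08 (SE 0.153) and 0.06 (SE 0.285) in the same order. With cyclosporin A at 24 h, H2-Aa measured 46.7, 37.3 and 47.6 CPM in C57BL/6J and 27.1, 20.5 and 71.0 CPM in DBA/2J, where replicate 3 stands above the other libraries. The medians over the H2 genes tested were 0.02, -0.01, 0.05 and 0.10 for tunicamycin and cyclosporin A at 6 h and then at 24 h. Among the class I loading genes, tunicamycin at 24 h raised the chaperones Calr by 0.72 and Pdia3 by 0.59 and lowered the peptide-trimming protease Erap1 by 0.24 on the log2 scale.

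Other genes of antigen presentation were read from 4 lists of pathway genes. Cd74, the invariant chain that escorts class II, fell by 1.90 with time, rose by 1.73 under normoxia and by 2.98 under normoxia-hyperoxia against 24 h controls, and rose by 1.26 from normoxia to normoxia-hyperoxia. That last step was 0.69 in C57BL/6J and 1.84 in DBA/2J (interaction 1.15, adjusted p = 0.000514), with means of 527 and 842 CPM against 361 and 1362 CPM. The class II regulator Ciita fell by 1.82 with time and rose by 2.74 and 2.82 against 24 h controls. From normoxia to normoxia-hyperoxia it had a log2 difference of 0.10 over both strains (adjusted p = 0.474), with an interaction of 0.92 (adjusted p = 0.0169). Its means were 12.8 and 9.83 CPM in C57BL/6J and 9.02 and 14.1 CPM in DBA/2J. In the class II processing list, which holds proteases beside Cd74, 3 of 8 rose and 3 fell with time, 5 rose and 2 fell under normoxia, and 3 rose and 1 fell under normoxia-hyperoxia, both against 24 h controls. Of all genes 34.7% rose and 37.4% fell with time, 42.4% and 39.7% under normoxia, and 34.1% in each direction under normoxia-hyperoxia.

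The class I regulator Nlrc5 had a log2 difference of 0.07 with time (adjusted p = 0.709), fell by 0.76 under normoxia, and rose by 1.66 under normoxia-hyperoxia against 24 h controls and by 2.44 against normoxia. Its means from normoxia to normoxia-hyperoxia were 10.8 and 50.5 CPM in C57BL/6J and 4.76 and 30.8 CPM in DBA/2J. Tap1, a subunit of the peptide transporter, fell by 0.88 under normoxia and rose by 1.67 from there to normoxia-hyperoxia, and B2m, the class I light chain, fell by 0.36 and rose by 0.79. In the class I processing list 3 of 14 rose and 6 fell under normoxia, and 10 rose and 3 fell from normoxia to normoxia-hyperoxia. Of all genes 42.4% rose and 39.7% fell in the first comparison, and 37% rose and 36.5% fell in the second. Both comparisons share the normoxia libraries. DBA/2J was lower in Nlrc5 by log2 differences of -1.27 and -1.52 in 6 h and 24 h controls and of -1.18 and -0.70 under normoxia and normoxia-hyperoxia.

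Of the genes of interferon gamma and its response, 8 of 11 tested fell under normoxia against 24 h controls and 1 rose, where 39.7% of all genes fell, and 11 of 12 rose from normoxia to normoxia-hyperoxia with none falling, where 37% of all genes rose. Both comparisons use the same normoxia libraries, so a fall and a rise are not independent of each other. The chemokine Cxcl10 was lower by 4.85 under normoxia than in 24 h controls, and higher by 6.10 under normoxia-hyperoxia than under normoxia. In 24 h controls, normoxia and normoxia-hyperoxia its means were 146, 4.32 and 342 CPM in C57BL/6J and 57.1, 2.14 and 136 CPM in DBA/2J. The transcription factor Irf1, from the list of MHC transcription regulators and not part of the counts above, was lower by 1.38 and higher by 3.38 in these comparisons. Ifng itself rose by 2.52 from normoxia to normoxia-hyperoxia but never exceeded a group mean of 1.10 CPM. T and NK cell markers, whose cells make it, summed to 13.3 to 15.4 CPM under normoxia and 10.7 to 11.4 CPM under normoxia-hyperoxia in C57BL/6J, and to 21.5 to 25.0 and 17.3 to 17.8 CPM in DBA/2J. Trac was the 1 gene of the list called higher in DBA/2J under normoxia, with means of 18.2 CPM in DBA/2J and 2.97 CPM in C57BL/6J, while Cd8a, Cd3d, Cd3g and Cd3e were lower in DBA/2J there (log2 -2.91, -2.15, -1.69 and -1.40). Their part in the interferon pattern was not tested.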

How the data were processed

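RNA of 48 kidney slice libraries was measured by stranded mRNA sequencing, per the labels' protocols. The authors deposited raw read counts per gene, and the submitters' processing notes name bcl2fastq 2.20.0, FastQC 0.11.8, STAR 2.7.9a, featureCounts 1.5.1 and GRCm38. The annotation release, the strand setting and the treatment of reads with several matches are not given in the sources used here. Samples were grouped by the labelled strain, treatment and time, with the labelled biological replicate number. The labels do not say that the replicates are separate animals, so p-values measure only the spread between these samples.

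Counts were tested in R 4.3.3 with edgeR 4.0.16 (TMM factors, filterByExpr by group, robust quasi-likelihood F-test) and Benjamini-Hochberg adjustment over all genes tested, at a threshold of 0.05. Each treatment comparison used its own 12 libraries, with the mean of both strains, each strain and the interaction (DBA/2J minus C57BL/6J) as contrasts. Strain differences came from 1 fit of all 48 libraries. CPM values were scaled with TMM factors over the 48 libraries, and CPM per kb used the union of annotated exons. Normoxia and normoxia-hyperoxia were set against 24 h controls and each other, and normoxia also against 6 h controls. The 24 h controls are shared by the time, normoxia and normoxia-hyperoxia comparisons. The normoxia libraries are shared by all comparisons with normoxia, so a fall against controls and a rise to normoxia-hyperoxia are not independent.

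All H2 genes with a group mean of at least 1 CPM were given values. Of other genes, B2m, Tap1, Nlrc5, Cd74 and Ciita were named always, and from each pathway list at most the 3 called genes with the largest absolute log2 change. The members and the lists were chosen with earlier results of these data known. Alternatives were RLE factors, no filter on low counts, DESeq2 1.42.0, other sets of libraries in the fit, a block for the replicate number, and fits without 1 library each; class sums with RLE factors were added after seeing the data. The scripts were tested on simulated data. Depth limits genes under about 1 CPM, whose values rest on few counts.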

Additional observations from a re-analysis of the deposited data

Results flagged for a closer look

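The response of 33 gene and comparison pairs differed between the strains by the interaction term of edgeR, as the log2 change in DBA/2J minus that in C57BL/6J. For normoxia against 24 h controls, where 17% of all genes had an interaction, 8 of 29 H2 genes did: H2-DMa (-1.37), H2-Ab1 (-0.74), H2-D1 (0.68), H2-Q1 (2.87), H2-Q2 (2.64), H2-Q4 (0.74), H2-Q10 (1.08) and H2-T-ps (3.65). Those of H2-Ab1, H2-Q1 and H2-Q10 were lost in 7, 9 and 8 of 12 fits without 1 library. That of H2-D1 was lost without DBA/2J 24 h control replicate 3 (0.54, adjusted p = 0.0581 by edgeR). Against 6 h controls, with 3.66% of all genes, they were H2-K2 (1.33), H2-DMb2 (-1.51) and H2-Bl (-2.43), the last lost in 10 of 12 such fits. This count of 3 became 9 with no filter on low counts, 6 with DESeq2 and 9 with the replicate number as a block.

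For normoxia-hyperoxia against 24 h controls, with 1.43% of all genes, all 9 were larger in DBA/2J: H2-Aa (1.21), H2-Q1 (3.37), H2-Q2 (2.40), H2-Q10 (2.29), H2-T24 (2.03), H2-T23 (0.90), H2-T22 (0.98), H2-Bl (3.25) and H2-T-ps (4.89). Those of H2-Aa, H2-Q1 and H2-T24 were lost in 9, 8 and 8 of 12 fits without 1 library, and that of H2-T22 without DBA/2J 24 h control replicate 3, C57BL/6J normoxia-hyperoxia replicate 1 or DBA/2J normoxia-hyperoxia replicate 2. From normoxia to normoxia-hyperoxia, where 18.2% of all genes had an interaction and 7.2% in that direction, all 10 were larger in DBA/2J: H2-DMa (0.82), H2-DMb2 (1.27), H2-DMb1 (1.11), H2-Ob (0.97), H2-Ab1 (1.15), H2-Aa (1.27), H2-Eb1 (1.02), H2-T23 (1.00), H2-T22 (0.63) and H2-Bl (3.45). With time, where 0.69% of all genes had one, they were H2-Q2 (-2.36), H2-Q10 (-2.72) and H2-T-ps (-3.57).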

How the results depend on the processing

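Of 289 calls for single H2 genes over both strains, for the interaction and between the strains, 243 were kept under every alternative and none changed direction. DESeq2, RLE factors and the replicate block each lost 3 calls, no filter on low counts 11, fitting only the 6 libraries of a condition 11 and a single fit of all 48 libraries 13, and 41 calls were lost in at least 1 fit without 1 library. The number of H2 genes with an interaction for normoxia against 6 h controls was 3, and became 9 with no filter and 6 with DESeq2. The number with an interaction with time was 3, and became 8 with no filter and 7 with DESeq2. The cause was not tested. Leaving out 1 library gave 2 to 5 interactions for normoxia against 6 h controls (5 without C57BL/6J 6 h control replicate 1), 5 to 10 where all libraries gave 8 for normoxia against 24 h controls, and 5 to 10 where all gave 9 for normoxia-hyperoxia against 24 h controls. DBA/2J 24 h control replicate 3 was among the libraries whose removal gave 5 in both. With the replicate number as a block, the interactions for normoxia against 6 h controls numbered 9, and the calls over both strains were 19 with time, 25 and 18 for normoxia against 24 h and 6 h controls, 25 for normoxia-hyperoxia against 24 h controls and 19 against normoxia. In 0 of 17 comparisons did every same-numbered pair's correlation of deviations exceed 0.1, and within strains they ran from -0.101 to 0.302. All pairs of DBA/2J exceeded 0.1 for tunicamycin at 24 h, normoxia against 6 h controls and normoxia-hyperoxia against normoxia. All pairs of C57BL/6J did so for normoxia-hyperoxia against 24 h controls. Of 199 calls for H2 genes within a single strain, 160 were kept under every alternative run, 35 were lost in at least 1 fit without 1 library and none changed direction. Values under 1 CPM rest on few counts.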
